A study of Sus scrofa with 18 samples.

Results

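The genes described here are 10 core genes of the circadian clock: the activators ARNTL (also called BMAL1) and CLOCK, the repressors PER1, PER2, PER3, CRY1 and CRY2, the nuclear receptors NR1D1 and NR1D2, and the output factor DBP. They were taken by symbol from a count table of 29884 genes, and all 10 were found. The table holds 18 RNA-seq libraries of male Bama pigs, a Chinese miniature breed, all offspring of one sire and raised alike. Subcutaneous fat (SAF) of the back and visceral fat (VAF) from beside the kidney were taken at 1 month (infancy), 3 months (puberty) and 6 months (adulthood) of age, which gives 6 groups of 3 libraries. The pigs were fasted before slaughter and killed with pentobarbital sodium, no gene was altered, and the age groups are different animals. A library is named by depot, age in months and number, so that VAF6-3 is visceral library 3 of 6 months. No source used here ties a library number to a pig, so p-values measure the spread between these libraries. The hour at which the tissues were taken is not given in the sources used here.

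The clock of a mammalian cell is a feedback loop of transcription. ARNTL and CLOCK bind as a dimer to E-boxes and switch on the PER, CRY, NR1D and DBP genes; PER and CRY proteins then hold the dimer back, while NR1D1 and NR1D2 (also called REV-ERB alpha and beta) bind ROR elements and repress ARNTL. DBP, with its relatives TEF and HLF, binds D-boxes, such as those of the PER genes, and NFIL3 represses through the same sites. In fat, the loop gives daily rhythms to transcripts, among them ARNTL in one phase and PER, NR1D1 and DBP in the opposite one, and to lipid storage and release.

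Total counts ranged from 16404239 to 22857354 per library, and the lowest count of a clock gene in any library was 19, for CLOCK in VAF3-2. Levels are given as CPM, counts scaled to 1000000 per library after TMM adjustment of the totals. A total of 4 libraries stood apart. SAF6-3 and VAF6-3 held 963 and 1230 CPM in the sum of 8 fatty acid synthesis genes, while the other 4 libraries of 6 months held 66300 CPM or more, and the study left VAF6-3 out of its tests, as is done here unless stated. VAF3-1 and VAF3-2 held 542 to 1470 CPM of 8 urothelium markers, against 3.65 in VAF3-3, and 8040 to 8830 CPM of 8 smooth muscle markers against 663. The 8 adipocyte markers summed to 5000 to 5780 CPM in these same libraries and to 10200 CPM or more in each of the other 16. In such bulk tissue, fewer cells of a type and less RNA per cell cannot be told apart. For 4 VAF libraries of 3 and 6 months the labels conflict: column names, used here, make VAF3-3 a library of 3 months and VAF6-1 one of 6 months, while the sample titles state the reverse. The study's supplementary counts under the names VAF6-1 and VAF3-3 are those of the columns so named. Both libraries are older than 1 month under either reading.

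All 10 genes matched RefSeq gene models of the pig genome Sscrofa11.1. PER1 lies on chr12:53361863-53376723 (minus strand), PER3 on chr6:68487634-68548718 (plus strand) and DBP on chr6:53986955-53993044 (minus strand). NR1D1 on chromosome 12 overlaps THRA on the opposite strand, CLOCK on chromosome 8 overlaps TMEM165 on the opposite strand, and CRY1 on chromosome 5 overlaps 4 genes, some on its own strand. The strand setting of the counting is not stated, so the values of CLOCK, CRY1 and NR1D1 may hold reads of these partners. The upstream sequences of PER1, PER3 and DBP are shown because these windows hold clock motifs; PER1 and PER3 passed the test of age described later, and DBP passed it only without SAF6-3 or in DESeq2. Each is the 250 bases before the annotated start, read 5′ to 3′ on the gene's strand from RefSeq's Sscrofa11.1, at chr12:53376724-53376973 for PER1, chr6:68487384-68487633 for PER3 and chr6:53993045-53993294 for DBP. Capitals mark an E-box (CACGTG) in PER1, an E-box and D-boxes (TTATGTAA or TTACGTAA) in PER3, and ROR elements (TAGGTCA or TGGGTCA) in DBP.
PER1: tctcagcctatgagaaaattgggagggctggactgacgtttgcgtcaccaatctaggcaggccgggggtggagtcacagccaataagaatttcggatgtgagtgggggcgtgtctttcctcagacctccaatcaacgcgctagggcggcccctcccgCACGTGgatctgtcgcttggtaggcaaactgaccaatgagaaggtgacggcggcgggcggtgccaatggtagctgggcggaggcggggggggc
PER3: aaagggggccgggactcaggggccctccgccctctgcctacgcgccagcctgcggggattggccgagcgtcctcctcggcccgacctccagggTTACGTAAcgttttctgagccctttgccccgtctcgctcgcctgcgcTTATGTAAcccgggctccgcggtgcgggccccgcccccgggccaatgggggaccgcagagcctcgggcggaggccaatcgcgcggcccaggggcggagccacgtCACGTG
DBP: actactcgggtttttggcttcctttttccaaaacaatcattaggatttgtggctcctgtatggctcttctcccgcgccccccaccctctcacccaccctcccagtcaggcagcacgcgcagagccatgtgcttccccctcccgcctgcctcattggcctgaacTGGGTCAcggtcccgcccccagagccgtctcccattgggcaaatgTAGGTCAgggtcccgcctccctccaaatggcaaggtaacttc
The E-box of PER1 spans bases -93 to -88 from the start, and that of PER3 bases -6 to -1. The D-boxes of PER3 span -157 to -150 and -110 to -103, and the ROR elements of DBP span -87 to -81 and -42 to -36. Searched on both strands from 250 bases before to 50 bases after the start, an E-box was found in 7.93%, a D-box in 0.94% and a ROR element in 6.55% of 19525 promoters. The motifs do not overlap one another in these windows. CRY2 held 1 ROR element at -19 to -13, and no such letters were found in the windows of the other 6 genes.

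Per kilobase of exon, PER1 had the highest mean level of the 10 genes, 20.5 CPM per kb over 18 libraries. The length is that of all annotated exons of a gene with overlaps merged, from 2801 bases for DBP to 17277 for CRY1. It is not the length of a single transcript, and the ranking depends on it. DBP followed with 14.3, NR1D2 with 10.1 and CRY2 with 9.06 CPM per kb. PER3 (3.83), ARNTL (3.15), NR1D1 (2.24), PER2 (2.22), CLOCK (2.15) and CRY1 (1.04 CPM per kb) were lower, and NR1D1, PER2 and CLOCK differed by less than their spread over libraries. The highest library was 44.7-fold above the lowest for CLOCK, 10.7-fold for DBP, 9.2-fold for NR1D1 and 7.1-fold for ARNTL. For NR1D2, PER2, PER1, PER3, CRY1 and CRY2 it was 6.41-, 5.76-, 3.65-, 3.54-, 3.3- and 2.93-fold.

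**Figure D1:**
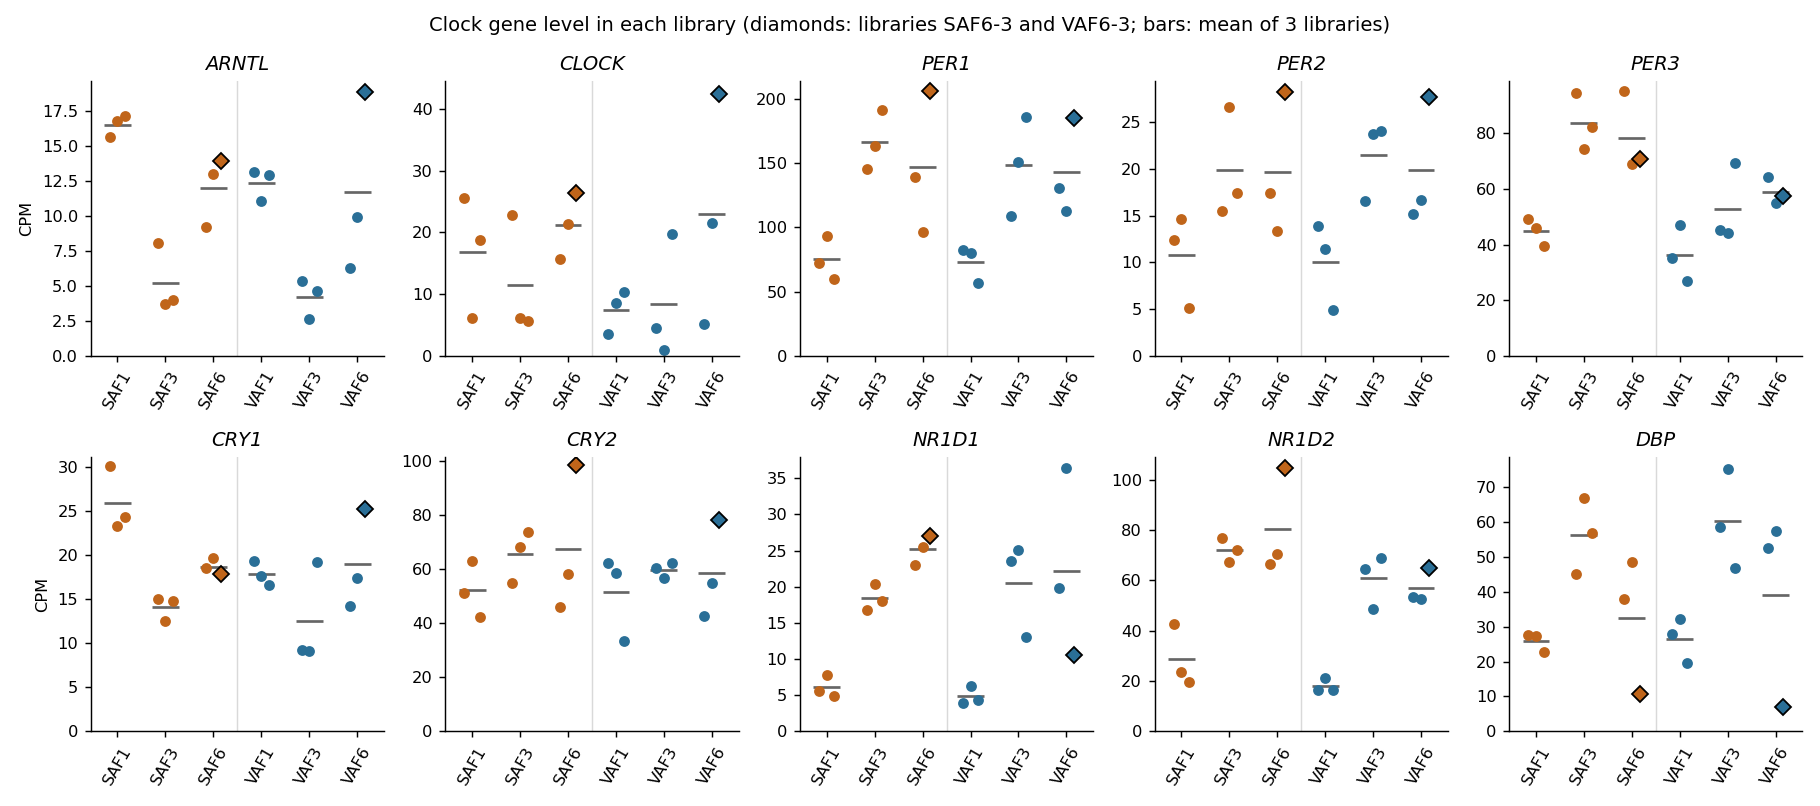
Level in CPM (linear axis from 0) of each clock gene in the 18 libraries, grouped by depot and age in months (SAF orange, VAF blue), with a bar at the mean of the 3 libraries and diamonds for SAF6-3 and VAF6-3. NR1D1, NR1D2 and PER1 lay lower in all 6 libraries of 1 month than in all 12 older ones, ARNTL was lowest at 3 months in both depots, and the diamonds of DBP lay at the bottom.

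The first question was how the clock genes differ between the age groups. These groups are different animals, and the hour of sampling is not given. For transcripts with a daily rhythm, age and hour of sampling therefore cannot be told apart here. The levels in the plot of CPM by library separated 1 month from both later ages more than 3 from 6 months, so a comparison of the 1-month libraries with those of 3 and 6 months together was added after seeing the data. In it, 4 of the 10 genes were higher at the later ages over both depots and none was lower (edgeR's quasi-likelihood test, a Benjamini-Hochberg adjusted p under 0.05 with a fold change above 1.5). Among these 4, NR1D1 and NR1D2 had the largest log2 fold changes, followed by PER1 and PER3. Of all 16009 genes tested, 1.77% passed the same limits in either direction and 0.725% as higher. The pigs gave both depots, and this test counts the depots of a pig as separate samples.

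NR1D1 showed the clearest difference. In SAF it was 5.66, 7.80 and 4.90 CPM at 1 month, 16.8, 20.4 and 17.97 CPM at 3 months and 22.99, 25.5 and 27.05 CPM at 6 months. In VAF it was 3.95, 6.32 and 4.41 CPM at 1 month, 23.6, 25.1 and 13.1 CPM at 3 months and 19.8, 36.4 and 10.6 CPM at 6 months. All 12 older libraries, the 4 unusual ones included, lay above all 6 of 1 month. The log2 fold change of the later ages against 1 month was 2.06 ± 0.21 (SE) over both depots, with an adjusted p of 0.00017 in edgeR. Within SAF it was 1.83 ± 0.30 (adjusted p = 0.020, edgeR), and within VAF 2.29 ± 0.31 (adjusted p = 0.0065, edgeR).

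NR1D2, the paralogue of NR1D1, moved in the same way. Its levels in SAF were 42.8, 23.7 and 19.5 CPM at 1 month, 76.7, 67.2 and 72.25 CPM at 3 months and 66.3, 70.5 and 105 CPM at 6 months. In VAF they were 16.3, 21.4 and 16.55 CPM at 1 month, 64.7, 48.7 and 69.1 CPM at 3 months and 53.5, 52.7 and 64.7 CPM at 6 months. The groups did not overlap here either; SAF1-1 was the highest library of 1 month and VAF3-2 the lowest of the older ones. The log2 fold change was 1.55 ± 0.17 over both depots (adjusted p = 0.00021), 1.42 ± 0.24 in SAF (adjusted p = 0.023) and 1.69 ± 0.24 in VAF (adjusted p = 0.011), all by edgeR. Within a depot, NR1D1 and NR1D2 were the only clock genes that passed, among 20 genes in SAF (0.125% of those tested) and 11 in VAF (0.0687%). Without SAF1-3 neither passed in SAF, where 1 of 16597 genes did. Without SAF1-1 NR1D2 was the only clock gene that passed there, among 9 of 16622 genes. Without SAF1-2 it was NR1D1, among 10 of 16601 genes. Without VAF1-3 neither passed in VAF, where 1 of 16571 genes did.

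Among the PER genes, which encode the inhibitory arm of the loop, PER1 and PER3 passed over both depots. PER1 in SAF was 72.1, 93.2 and 59.6 CPM at 1 month, 146, 163 and 192 CPM at 3 months and 139, 96.0 and 206.5 CPM at 6 months. In VAF it was 82.5, 79.8 and 56.6 CPM at 1 month, 108.5, 151 and 186 CPM at 3 months and 131, 112 and 185.5 CPM at 6 months. SAF6-2 was the lowest older library and lay just above SAF1-2, the highest of 1 month. The log2 fold change of PER1 was 1.00 ± 0.18 (adjusted p = 0.0087, edgeR). PER3 was 39.5 to 49.3 CPM in SAF at 1 month and 69.0 to 95.4 CPM in the 6 older SAF libraries. In VAF it was 27.0, 35.1 and 47.0 CPM at 1 month and 44.3 to 69.5 CPM later, so that VAF1-2 overlapped with VAF3-1 and VAF3-2. The log2 fold change of PER3 was 0.74 ± 0.14 (adjusted p = 0.011, edgeR), and it did not pass without SAF1-3, where 87 of 16597 genes did. PER2, with a log2 fold change of 0.92 ± 0.26 (adjusted p = 0.079, edgeR), did not pass. It ran from 4.90 to 14.7 CPM in the libraries of 1 month and from 13.4 to 28.2 CPM in the older ones, and the groups overlapped only through SAF1-2, VAF1-1 and SAF6-2.

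For DBP, which drives D-box genes, the result depended on SAF6-3. In SAF it was 27.5, 27.3 and 22.8 CPM at 1 month, 44.97, 66.8 and 56.85 CPM at 3 months and 37.85, 48.5 and 10.8 CPM at 6 months. In VAF it was 27.8, 32.2 and 19.6 CPM at 1 month, 58.4, 75.1 and 46.8 CPM at 3 months and 52.35, 57.25 and 7.02 CPM at 6 months. The other 10 older libraries lay above all those of 1 month, and SAF6-3 and VAF6-3 below all of them. With SAF6-3 in the test the log2 fold change was 0.96 ± 0.27 (adjusted p = 0.070, edgeR). Without both libraries DBP passed as higher and ARNTL as lower, which made 6 clock genes where 3.2% of all genes tested passed.

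ARNTL, the partner of CLOCK, had its lowest levels at 3 months and did not pass the edgeR tests of age in the reported setting. Under some alternative settings in edgeR it did pass, for example as lower at the later ages over both depots without SAF6-3. In SAF it was 15.7, 16.8 and 17.1 CPM at 1 month, 8.04, 3.71 and 3.965 CPM at 3 months and 9.18, 12.98 and 13.9 CPM at 6 months. In VAF it was 13.15, 11.0 and 12.9 CPM at 1 month, 5.34, 2.65 and 4.625 CPM at 3 months and 6.30, 9.90 and 18.8 CPM at 6 months. Each library of 3 months lay below each library of 1 month and of 6 months in its depot, which under the other reading of the labels does not hold in VAF between 3 and 6 months. VAF6-3 was the highest of all 18, and the test against both later ages gave a log2 fold change of -1.01 ± 0.28 (adjusted p = 0.073, edgeR).

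The ratio of NR1D1 to ARNTL ran from 0.286 to 0.573 in the 6 libraries of 1 month, from 2.09 to 9.45 at 3 months and from 1.94 to 3.67 at 6 months, leaving out VAF6-3 with 0.562. VAF6-3 was thus the one older library whose ratio fell within the range of 1 month, while SAF6-3 (1.94) did not. These are CPM ratios, which are not scaled to gene length.

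CRY1, a repressor of the dimer, was 30.1, 23.3 and 24.3 CPM in SAF at 1 month, 15.05, 12.53 and 14.7 CPM at 3 months and 18.55, 19.6 and 17.85 CPM at 6 months, with all older SAF libraries below those of 1 month. In VAF it was 19.3, 17.6 and 16.55 CPM at 1 month, 9.27, 9.10 and 19.2 CPM at 3 months and 14.2, 17.35 and 25.2 CPM at 6 months, and the ages overlapped. Its log2 fold change was -0.51 ± 0.16 (adjusted p = 0.10, edgeR). CRY2 gave 33.6 to 62.9 CPM at 1 month and 42.7 to 98.3 CPM later, and CLOCK 3.48 to 25.6 CPM and 0.950 to 42.45 CPM. The log2 fold changes were 0.24 ± 0.17 for CRY2 (adjusted p = 0.50, edgeR) and 0.22 ± 0.53 for CLOCK (adjusted p = 0.87, edgeR), with ages overlapping in both genes.

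Counted by libraries alone, 3 of the 10 clock genes (PER1, NR1D1 and NR1D2) had all 12 older libraries above all 6 of 1 month, where 21 of 14192 genes (0.148%) did, and none had them all below, where 36 genes (0.254%) did. In SAF, PER3 joined these 3 and ARNTL and CRY1 lay lower at the later ages (3.12% of genes higher and 3.11% lower). In VAF, PER2 joined them (0.944% of genes higher). A difference between the depots in this age change was not found for any clock gene by edgeR. It ranged from -0.51 ± 1.05 for CLOCK to 0.23 ± 0.34 for CRY2 and 0.23 ± 0.26 for PER3 on the log2 scale. No gene of the whole table passed in edgeR (406 genes at an unadjusted p under 0.05, none of them a clock gene), and 17 genes but no clock gene passed in DESeq2.

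**Figure D2:**
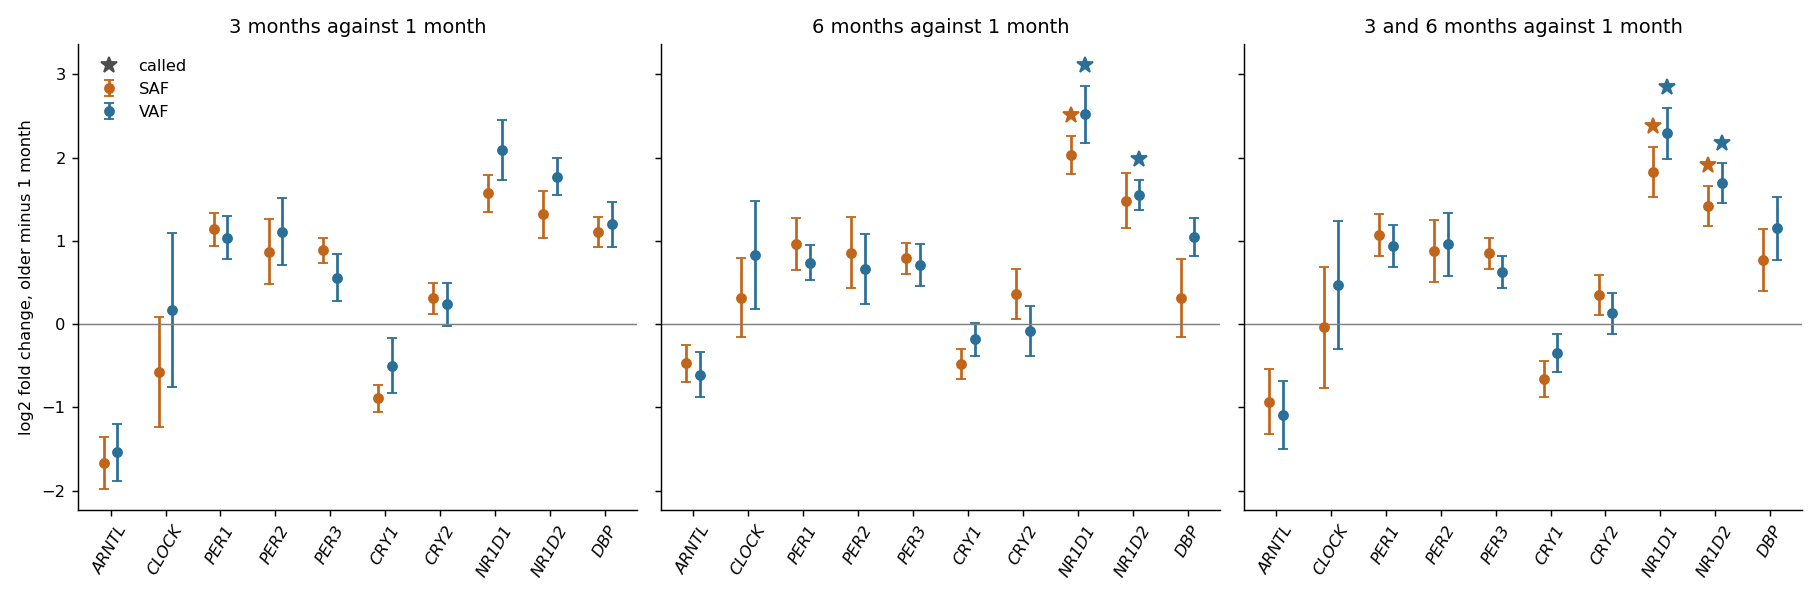
Log2 fold change of each clock gene, older minus younger, with its SE, for 3 months (left), 6 months (middle) and both later ages (right) against 1 month, in SAF (orange) and VAF (blue, without VAF6-3). Stars mark genes that passed in edgeR: none at 3 months, NR1D1 in both depots and NR1D2 in VAF at 6 months, and both genes in both depots against the later ages together.

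Single ages were also compared in pairs of groups. The comparison of 1 with 6 months was not among the study's own pairs. From 1 to 3 months in SAF no clock gene passed in edgeR (0.101% of 14892 genes did), while 7 of the 10 clock genes and 2027 of all genes had an unadjusted p under 0.05, and 7 passed in DESeq2, as did 2.5% of the genes it tested. NR1D1 came nearest with a log2 fold change of 1.57 ± 0.22 (adjusted p = 0.062), followed by DBP with 1.11 ± 0.18 (adjusted p = 0.072). A total of 6 clock genes had all 3 libraries of 3 months above those of 1 month and 2, ARNTL and CRY1, below, where 10.8% and 9% of genes did. The median log2 fold change of the 10 genes was 0.88, against -0.03 over all genes tested.

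From 1 to 3 months in VAF no clock gene and no other gene passed in edgeR, with 1385 genes and 6 of the 10 clock genes at an unadjusted p under 0.05. By DESeq2 5 clock genes passed, and 2.82% of its genes did. NR1D2 had a log2 fold change of 1.77 ± 0.22 (adjusted p = 0.13) and NR1D1 one of 2.09 ± 0.36 (adjusted p = 0.27). A total of 5 clock genes lay higher in all libraries of 3 months and ARNTL lower (5.18% and 7.25% of genes). VAF3-1 and VAF3-2 carry urothelium and smooth muscle markers, and VAF3-3, which does not, showed the same order: NR1D1 13.1, NR1D2 69.1, PER1 186 and DBP 46.8 CPM lay above all VAF libraries of 1 month and ARNTL 4.625 CPM below them. Without VAF3-3, NR1D1, NR1D2 and DBP passed in edgeR, where 6.44% of all genes did, against none with it.

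From 1 to 6 months, NR1D1 passed in both depots. In SAF its log2 fold change was 2.03 ± 0.23 (adjusted p = 0.037, edgeR), and 0.303% of genes passed. NR1D2, with 1.48 ± 0.33 (adjusted p = 0.13, edgeR), did not pass there, while NR1D1, NR1D2 and PER3 passed in DESeq2, as did 2.56% of its genes. In VAF, where 2 libraries of 6 months remained and 0.936% of genes passed, NR1D1 had a log2 fold change of 2.52 ± 0.34 (adjusted p = 0.033, edgeR) and NR1D2 one of 1.55 ± 0.18 (adjusted p = 0.027, edgeR). Neither passed with VAF6-3 included or under the other reading of the labels, where 0 genes of the table did. Leaving out any one of the 6 SAF libraries in this test except SAF6-3 ended the call of NR1D1. Of all genes, 1 passed without SAF6-1 and 0 without SAF1-1, SAF1-2, SAF1-3 or SAF6-2. In VAF each of VAF1-2, VAF1-3, VAF6-1 and VAF6-2 ended both calls when left out, and VAF1-1 that of NR1D1. Of all genes, 1 passed without VAF1-2, VAF6-1 or VAF6-2, 2 without VAF1-3 and 132 of 15105 without VAF1-1.

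Between 3 and 6 months no clock gene passed in either depot, by edgeR or by DESeq2. In SAF, 2 clock genes had an unadjusted p under 0.05, ARNTL with a log2 fold change of 1.20 ± 0.36 (adjusted p = 0.34, edgeR) and NR1D1 with 0.45 ± 0.18 (adjusted p = 0.48, edgeR). In VAF the 2 genes nearest to the limits were ARNTL with 0.94 ± 0.47 (adjusted p = 0.54, edgeR) and PER2 with -0.45 ± 0.30 (adjusted p = 0.66, edgeR). No gene of the table passed in edgeR in either depot, and an unadjusted p under 0.05 was found for 1404 genes in SAF and 1683 in VAF. The numbers of genes past the limits in DESeq2 were 347 and 518.

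Between the depots no clock gene passed at any age. At 1 month no gene of the table passed in edgeR (1702 genes, 2 clock genes among them, had an unadjusted p under 0.05), while 186 genes, but no clock gene, did in DESeq2. CRY1 was higher in all 3 SAF libraries, by 0.54 ± 0.16 on the log2 scale (adjusted p = 0.42, edgeR), as was ARNTL, by 0.43 ± 0.15 (adjusted p = 0.42, edgeR); 8.28% of genes lay so. At 3 months PER3 was the clock gene with the smallest p, 83.9 ± 10.1 CPM (SD, n = 3) in SAF against 53.0 ± 14.3 CPM (SD, n = 3) in VAF, a log2 fold change of 0.64 ± 0.23 (adjusted p = 0.32, edgeR), where 0.0401% of genes passed. Its libraries did not overlap between the depots, as for 7.99% of genes higher in SAF, and without VAF3-3 it passed, where 17.6% of all genes did. At 6 months no gene passed in edgeR (1016 genes and no clock gene at an unadjusted p under 0.05); NR1D2 had a log2 fold change of 0.60 ± 0.26 (adjusted p = 0.70, edgeR) and ARNTL one of 0.57 ± 0.33 (adjusted p = 0.71, edgeR). With the library number as a block, 766 genes (5.12%) passed at 6 months, and still no clock gene. Over all ages, where 4.09% of 16664 genes passed, the smallest p-values were those of PER3 with 0.45 ± 0.13 (adjusted p = 0.067, edgeR) and NR1D2 with 0.50 ± 0.16 (adjusted p = 0.078, edgeR), both higher in SAF and neither past the limits. No clock gene passed in DESeq2 in any of these comparisons of depots. The depots were also compared in their changes between single ages. From 1 to 3 months no gene passed in edgeR (943 genes and no clock gene at an unadjusted p under 0.05; 104 genes in DESeq2), and the change of NR1D1 in SAF minus that in VAF was -0.49 ± 0.41 and that of PER3 was 0.36 ± 0.31 on the log2 scale (adjusted p = 1.0 for both, edgeR). From 3 to 6 months no gene passed either (1449 genes and no clock gene at an unadjusted p under 0.05; 110 genes in DESeq2), with -0.66 ± 0.57 for DBP and 0.36 ± 0.39 for NR1D2 (adjusted p = 0.76 and 0.83, edgeR).

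Other clock genes were counted as a list of 23, of which 21 were in the table and tested. Over both depots, 5 were higher and 1 lower at the later ages than at 1 month, where 116 of all 16009 genes were higher and 168 lower. TEF, the relative of DBP, was 15.85 to 31.4 CPM at 1 month and 39.3 to 108 CPM later, with a log2 fold change of 1.84 ± 0.15 (adjusted p = 2e-05, edgeR). HLF, the other relative, was 13.6 to 21.3 CPM and 22.9 to 40.7 CPM, with a log2 fold change of 0.79 ± 0.14 (adjusted p = 0.0072, edgeR). Both separated the ages without overlap, SAF6-3 and VAF6-3 included. CIART, a repressor of the dimer, rose by 1.06 ± 0.17, and NAMPT, an NAD-producing enzyme under clock control, by 0.92 ± 0.19 on the log2 scale (adjusted p = 0.0042 and 0.021, edgeR). NFIL3, the repressor at D-boxes, was lower, with a log2 fold change of -0.81 ± 0.18 (adjusted p = 0.029, edgeR). NPAS2, which can stand in for CLOCK, had a log2 fold change of -0.70 ± 0.18 (adjusted p = 0.053, edgeR) and did not pass. The median over the list was 0.18, against 0.04 over all genes tested and 0.83 for the 10 core genes.

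PER1 is also induced by glucocorticoids, and 4 of 7 glucocorticoid-responsive genes tested were higher at the later ages over both depots, where 0.725% of all genes were. DUSP1, SGK1 and KLF9 did not pass. Median CPM at 1 month and later was 408 and 360.5 in SAF and 326 and 162 in VAF for DUSP1. For SGK1 it was 71.2 and 99.2 in SAF and 92.0 and 61.7 in VAF, and for KLF9 5.835 and 13.45 in SAF and 2.25 and 9.925 in VAF. FKBP5, a chaperone of the glucocorticoid receptor, rose by 2.05 ± 0.33 (adjusted p = 0.0050) and TSC22D3, an anti-inflammatory mediator, by 1.05 ± 0.19 (adjusted p = 0.0087) on the log2 scale in edgeR. ZBTB16 and CEBPD, both transcription factors, rose by 1.00 ± 0.22 and 1.18 ± 0.27 (adjusted p = 0.028 and 0.034, edgeR). Their part in the levels of the clock genes was not tested. Of 8 fatty acid synthesis genes 1 passed, SREBF1, their activator, with 1.04 ± 0.25 (adjusted p = 0.039, edgeR), where 1.77% of all genes passed in either direction.

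Covariation of the clock genes was measured over the 9 libraries of each depot as correlations of log2(CPM + 1), 45 pairs in each, with exact two-sided permutation tests adjusted over the 90 relations. In each depot 5 pairs passed, and the share that would pass among pairs of other genes was not measured. PER1 and PER2 rose and fell together in both, with Pearson's r = 0.864 and Spearman's rho = 0.95 in SAF (exact permutation p = 0.000496 for r and 0.000353 for rho, adjusted p = 0.0223 and 0.0317), and r = 0.937 and rho = 0.933 in VAF (exact permutation p = 9.65e-05 for r and 0.00075 for rho, adjusted p = 0.00868 and 0.0337). Without the 2 libraries farthest from the median of PER1, r was 0.756 in SAF and 0.927 in VAF. The other pairs that passed in SAF were NR1D1 with NR1D2 (r = 0.887), ARNTL with CRY1 (0.864), PER3 with NR1D2 (0.854) and PER1 with NR1D2 (0.827). In VAF they were PER1 with NR1D2 (r = 0.871), ARNTL with DBP (-0.838), PER1 with PER3 (0.83) and PER2 with NR1D2 (0.78). Each of these 8 relations had an adjusted p of 0.047 in exact permutation tests, and none of them passed by rho. Without the 2 libraries farthest from the median, r ran from 0.539 to 0.909 for the 4 pairs in SAF. In VAF it ran from 0.572 to 0.792 for the positive ones and was -0.872 for ARNTL with DBP. VAF6-3 is among the 9 VAF libraries here. Without it 2 pairs passed in VAF, both with a positive r, so that ARNTL with DBP no longer passed.

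Because the ages differ, these pairs also follow age, and they were computed again within ages. With each library taken as its deviation from its age mean, no pair passed in either depot. A lone pair could not have passed in this setting after adjustment, as the smallest possible p was 0.00463. It therefore does not show whether covariation remains within ages. An unadjusted exact permutation p under 0.05 was found for 2 pairs in SAF and 5 in VAF. PER1 with PER2 kept r = 0.768 in SAF (exact permutation p = 0.0463) and 0.852 in VAF (exact permutation p = 0.0231), both with an adjusted p of 0.492. NR1D1 with NR1D2 fell to r = 0.103 in SAF and -0.405 in VAF, and ARNTL with CRY1 in SAF to 0.227. ARNTL with DBP in VAF was -0.835 within ages (exact permutation p = 0.0648), and DBP with NR1D1 was 0.82 there. Over the 6 libraries of 3 and 6 months alone no pair passed either, and a lone pair could not have passed there after adjustment.

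**Figure D3:**
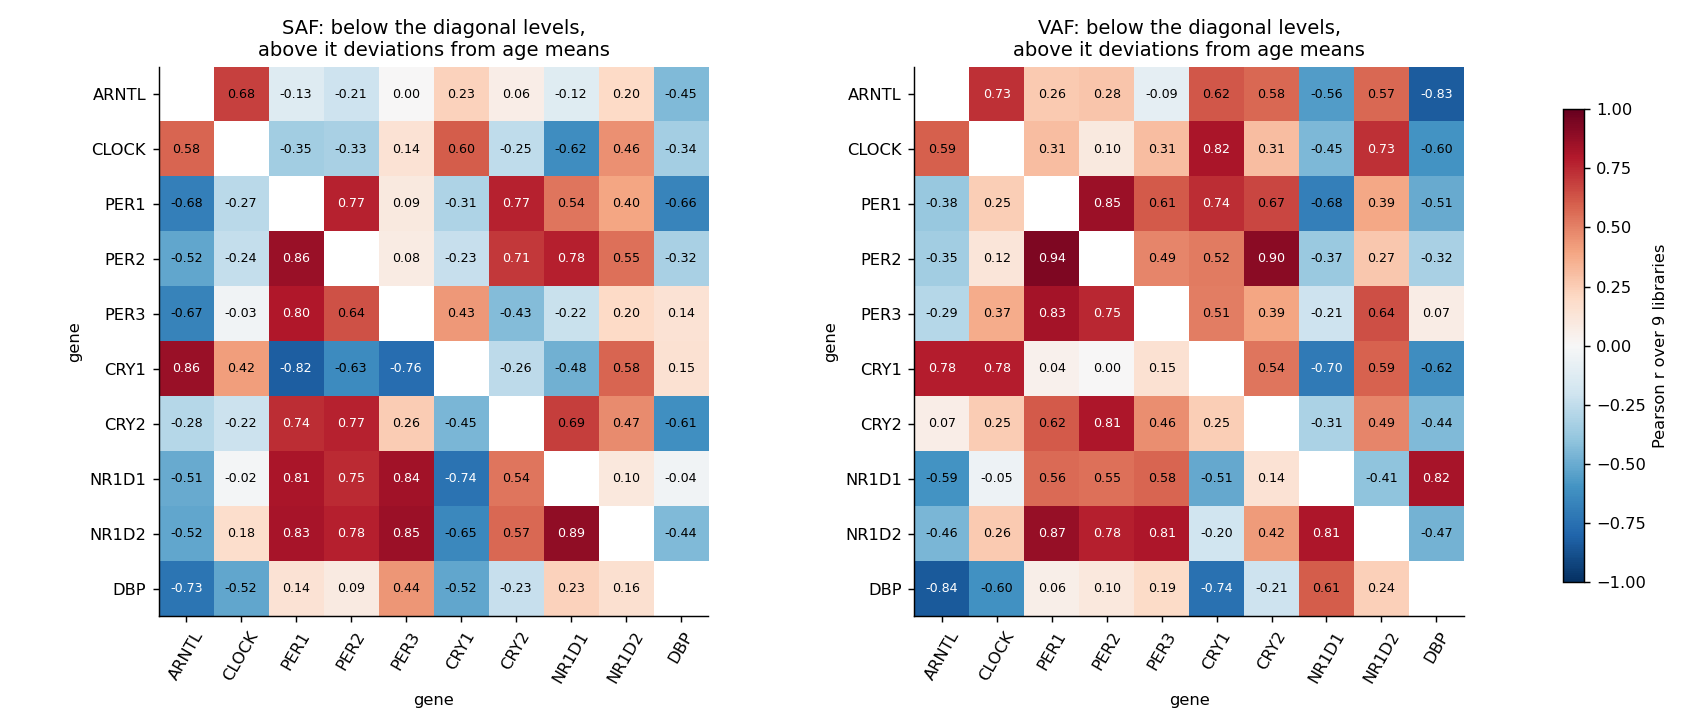
Pearson's r (colour from -1 to 1) for each pair of clock genes over the 9 SAF (left) and 9 VAF libraries (right), from log2(CPM + 1) below the diagonal and from deviations from the age means above it. PER1 with PER2 was high in all 4 cells, while NR1D1 with NR1D2 was 0.89 and 0.81 below the diagonal and 0.10 and -0.41 above it.

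It was also asked whether a SAF and a VAF library of the same age and number deviated together from their group means. Across all genes the numbers did not pair the libraries at 1 and 3 months, as given below, and those ages are included here. Over the 9 pairs of the same age and number no clock gene passed after adjustment over the 10 genes (exact permutation test over all re-pairings within ages, smallest possible p = 0.00463). DBP had the highest correlation, r = 0.96 and rho = 0.933 (exact permutation p = 0.037 for r and 0.0324 for rho, adjusted p = 0.154), with 8 of 9 pairs deviating in the same direction. SAF6-3 and VAF6-3 deviated by -1.264 and -1.865 on the log2 scale, and without this pair r was 0.573. Under the other reading of the labels r was -0.466, and the median r of the 10 genes was 0.115. Of 14192 genes, 1.1% had an r at or above that of DBP with all pairs, and 19.6% without the pair 6-3. PER2 gave r = 0.882 (exact permutation p = 0.0463), PER1 0.849 (exact permutation p = 0.0185), CRY2 0.808 (exact permutation p = 0.0694) and ARNTL 0.674 (exact permutation p = 0.13), with adjusted p from 0.154 to 0.259. For PER3 (0.35), CRY1 (0.207), NR1D1 (0.167), NR1D2 (0.15) and CLOCK (-0.027) the correlation was lower. Without the pair 6-3, r was 0.842 for PER2, 0.767 for PER1 and 0.733 for ARNTL. The median r of the 10 genes was 0.512, against 0.357 over all genes, and 0.547 against 0.166 without the pair 6-3.

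**Figure D4:**
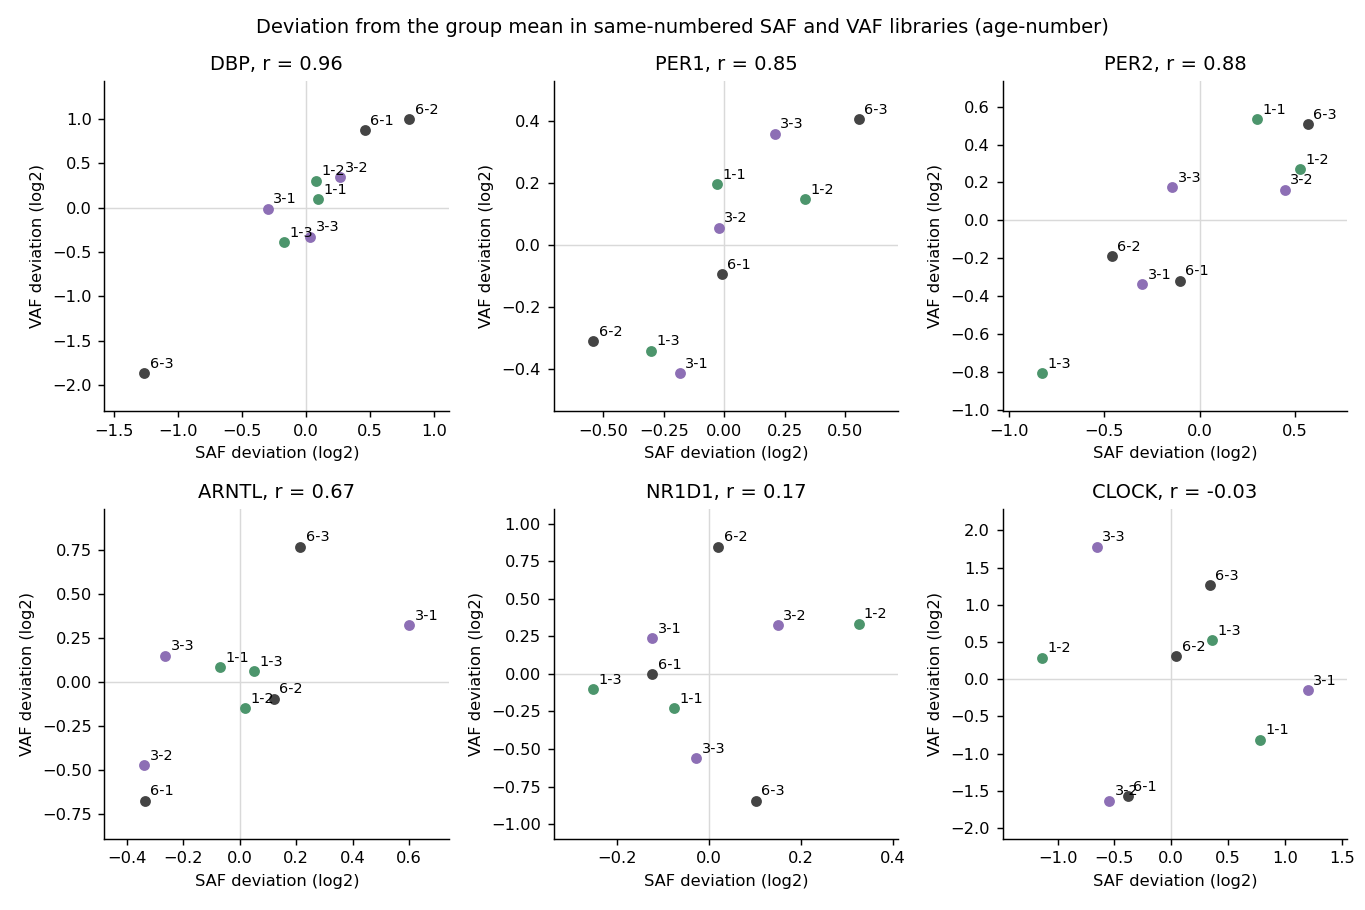
Deviation from the group mean of log2(CPM + 1) in the SAF library (horizontal axis) and the VAF library (vertical axis) of the same age and number, for 6 clock genes; labels give age in months and number, and colours the age. The DBP points follow the diagonal with 6-3 far below the rest, PER1 and PER2 points spread along it, and CLOCK points do not.

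The levels of CLOCK in SAF were 25.6, 6.06 and 18.8 CPM at 1 month, 22.7, 6.08 and 5.56 CPM at 3 months and 15.6, 21.3 and 26.4 CPM at 6 months. In VAF they were 3.48, 8.61 and 10.3 CPM at 1 month, 4.45, 0.950 and 19.7 CPM at 3 months and 5.12, 21.45 and 42.45 CPM at 6 months. The ages overlapped in both depots, and the 3 libraries of VAF3 alone ran from 0.950 to 19.7 CPM. The level of CLOCK was compared with the base composition of the libraries, measured as the median deviation of 1389 genes with under 40% GC in their exons minus that of 2948 genes with over 60%. In SAF r was 0.896 and rho 0.85 (exact permutation p = 0.000383 for r and 0.00607 for rho, adjusted p = 0.00383 and 0.0607 over 20 relations), and 0.859 without the 2 libraries farthest from the median. In VAF r was 0.955 and rho 0.967 (exact permutation p = 5.79e-05 for r and 0.000165 for rho, adjusted p = 0.00116 and 0.00331), and 0.875 without 2 libraries. No other clock gene had an adjusted p under 0.05 for this balance, the next being CRY1 in VAF with r = 0.761 (exact permutation p = 0.0164, adjusted p = 0.109). The share of all genes that follow the balance as closely was not measured, so the relation is not shown to be particular to CLOCK. VAF3-2 had the lowest balance, -0.897, and the lowest CLOCK level.

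**Figure D5:**
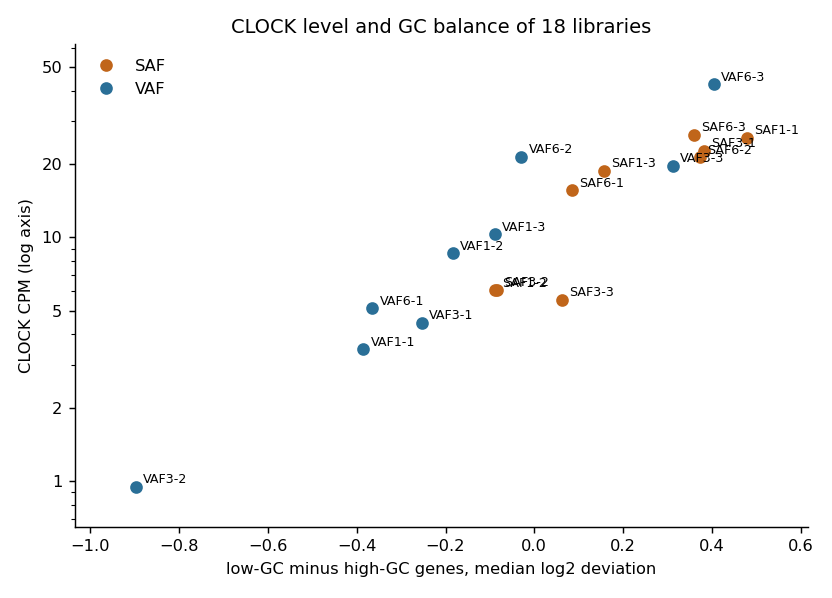
CLOCK level in CPM (log axis) against the GC balance of each of the 18 libraries (median log2 deviation of low-GC genes minus that of high-GC genes from their means over libraries), SAF in orange and VAF in blue. Points rise to the right in both depots, with the lowest level in VAF3-2 (-0.897, 0.950 CPM) and the highest in VAF6-3 (0.405, 42.45 CPM).

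The genes most like ARNTL and DBP were ranked by Pearson's r over deviations from group means in all 18 libraries, among 14192 genes, as a description; the libraries share depth and base composition differences. AMOTL2 (r = 0.922), USP21 (0.915) and PUM2 (0.913) were among the 5 genes most like ARNTL, and LAMTOR1 (-0.938) was least like it. EIF4EBP1 (0.987), DHRS3 (0.971) and MRPS17 (0.969) were most like DBP, and KANK2 (-0.949) least. The deviations of DBP were largest in SAF6-3 (-1.264) and VAF6-3 (-1.865), and its ranking was not computed without them. Of the other clock genes, BHLHE40 (0.856) and TEF (0.846) were near DBP, NFIL3 (-0.839) was far from it, and CIART (-0.848) was far from ARNTL. CLOCK, added after its values were seen, was most like ROCK1 (0.993), RNF111 (0.984) and CCAR1 (0.984).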

How the data were processed

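RNA of 18 fat samples was sequenced. The authors used fastp for read cleaning, HISAT2 (2.0.4 per the submitters' processing notes) for alignment to the build Sscrofa11.1 and HTSeq-count for counting per gene. The deposited values are raw counts, not normalized. Total counts were 16404239 to 22857354 per library (median 18901509.5), which limits precision most for genes with few counts.

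Groups followed the labels; where titles and column names conflicted, column names were used and the titles were tried as the other reading of the labels. From the counts, CPM were computed with TMM-adjusted library sizes, and log2 values with a pseudocount of 1. Pairs of groups were compared with the quasi-likelihood test of edgeR 4.0.16 (R 4.3.3, filterByExpr, no replicate block, VAF6-3 left out as in the study), and a gene passed at an adjusted p (Benjamini-Hochberg) under 0.05 with a fold change above 1.5 in either direction. Values over several groups came from 1 fit. No source ties library numbers to pigs. At 6 months the deviations of same-numbered libraries of the depots correlated at 0.69, 0.535 and 0.713 across 14192 genes. The reported comparisons of groups did not use the number as a pairing at any age. The replicate block, an alternative, and the test of shared deviation used it at every age. Correlations used exact permutation tests (scipy 1.17.1). Fold changes are older minus younger and SAF minus VAF. Alternatives were DESeq2 1.42.0, its size factors in edgeR, no filter, a replicate block, all groups in 1 fit, single libraries left out, other libraries left in or out, and another pseudocount or scale. The members and lists were chosen with earlier results of these data known. Statistics were printed for each clock gene that passed and for the 2 with the smallest p in a comparison. All 10 are given in the comparison of 1 month with the later ages, which was chosen after seeing the data. On simulated data with 200 genes changed by 2 on the log2 scale, edgeR recovered 94% with 3 against 3 libraries among 15396 genes, 89.5% with 3 against 2 among 15608, and 54.5% for a difference between depots among 16182. Every simulated gene had the same dispersion (spread between replicates) of 0.1, and no simulated library was unusual. These shares therefore do not give the recovery in the real libraries, which was not measured. Some genes that the rules would name are not reported here.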

Additional observations from a re-analysis of the deposited data

How the results depend on the processing

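The limits are set by 3 libraries a group, by 4 unusual libraries and by the age of VAF6-1 and VAF3-3, on which the labels conflict. Of the counts of clock genes and correlations that answer a comparison, 296 values under an alternative stayed within 1.5 times the reported one and 69 did not; among single genes, 778 kept direction and side of the threshold, 33 passed only under the alternative, 72 no longer passed and 20 changed sign. Causes were not tested except where the alternative itself used fewer libraries.

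With DESeq2, 7 clock genes passed from 1 to 3 months in SAF, 5 in VAF, and 3 from 1 to 6 months in SAF. Over all genes, 551 of 22031, 622 of 22092 and 564 of 21991 did. Against the later ages together 7 clock genes passed over both depots (789 of 23501 genes) and 4 in SAF (183 of 23501 genes). With no filter on low counts 5 passed from 1 to 3 months in SAF, as did 125 of all 22065 genes. With all 6 groups in 1 fit, 2 passed from 1 to 6 months in SAF, 3 from 1 to 3 months in VAF and 1 from 1 to 6 months in VAF. Of all 16664 genes, 136, 278 and 15 passed in these comparisons. The following variants of that fit were chosen after seeing the data. From 1 to 6 months in SAF 2 passed in each of them, where 88 of 16101 genes did with VAF6-3 included. The share of all genes in the other variants is not given here. From 1 to 3 months in VAF 2 passed with VAF6-3 included (169 of 16101 genes). Without both 6-3 libraries 5 passed in that comparison, for which the share of all genes is not given here either. In the same comparison 4 passed without VAF3-3 (8.76% of all genes) and 2 under the other reading of the labels (1.52%). Without VAF3-3, 1 passed between the depots at 3 months (PER3, 17.8% of all genes), 1 from 1 to 3 months in SAF (0.0603%) and 1 from 3 to 6 months in VAF (CRY1, 12.9%). Under the other reading, 3 passed from 3 to 6 months in VAF (ARNTL, CLOCK and CRY1, 10.7% of all genes) and 0 from 1 to 6 months. In the fits of 2 groups, 0 passed from 1 to 6 months in VAF with VAF6-3 included and 0 under the other reading, where no other gene passed either. That reading also changed signs: ARNTL between the depots at 6 months was -0.21 (-0.25 in 1 fit), PER2 from 3 to 6 months in VAF was 0.27 (0.24 in 1 fit), and DBP in the depot difference of that step was 0.17.

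Leaving out 1 library at a time gave 0 to 2 clock genes from 1 to 3 months in SAF, 0 to 3 in VAF, 0 to 1 from 1 to 6 months in SAF, 0 to 1 in VAF, and 0 to 1 between the depots at 3 months, where PER3 passed without VAF3-3. Over all genes it gave, in the same order, 0 to 38, 0 to 1013, 0 to 243, 1 to 132 and 0 to 2740 calls. Against the later ages leaving out 1 library gave 3 to 6 clock genes over both depots, 0 to 2 in SAF and 0 to 3 in VAF. Over all genes it gave 87 to 510, 1 to 24 and 1 to 73 calls there. Without SAF6-3, ARNTL and DBP passed over both depots, without VAF6-2 ARNTL, and without VAF3-3 CRY1. Over all genes, 510 of 15940, 259 of 15981 and 301 of 15927 passed in these.

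With CPM by total counts, 10 correlations passed in SAF, 11 in VAF and 1 shared deviation. With deviations from age means 0 passed in SAF and 0 in VAF, also under the other reading (0), and over 3 and 6 months alone 0 in each. In these settings a lone pair could not pass after adjustment. Leaving out 1 library gave 0 to 14 in SAF (14 without SAF6-3, 0 without SAF1-3 or SAF6-1) and 1 to 5 in VAF. The r of the shared deviation changed sign with CPM by total counts for CLOCK (0.053) and NR1D1 (-0.007), under the other reading for NR1D1 (-0.012) and DBP (-0.466), without 1 month for CLOCK (0.119) and NR1D1 (-0.097), without 3 months for CLOCK (0.078) and without 6 months for NR1D2 (-0.096). Leaving out 1 pair, r ran from -0.287 to 0.32 for CLOCK (above 0 also at 0.127, 0.058 and 0.015), from -0.116 to 0.521 for NR1D1, from -0.032 to 0.389 for CRY1 and from -0.098 to 0.721 for NR1D2.

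At 1 and 3 months the replicate numbers did not pair the libraries: across 14192 genes, the deviations of libraries with the same number in both depots correlated at -0.222, -0.042 and 0.355 at 1 month and 0.117, 0.507 and -0.024 at 3 months. At 6 months each SAF library correlated best with its own number. With the replicate block, 5 clock genes passed from 1 to 3 months in SAF, 1 from 3 to 6 months in VAF (CLOCK), 3 from 1 to 6 months in VAF and 1 in SAF. Over all genes the block gave 149 calls from 1 to 3 months in SAF against 15, 766 between the depots at 6 months against 0, 2290 from 3 to 6 months in VAF against 0, and 829 from 1 to 6 months in VAF against 142. From 1 to 6 months in SAF it gave 35 against 45.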

Other observations

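Apart from clock genes, 16 genes were higher in all 12 older libraries than in all 6 of 1 month, and 36 were lower, among 14192. These were chosen after their values were seen. SDR16C5, a retinol dehydrogenase, ran from 259 to 469 CPM at 1 month and from 7.455 to 140 CPM later. LOXL2, which crosslinks collagen, ran from 309 to 612 CPM at 1 month and from 61.5 to 299 CPM later, and SPP1 (osteopontin) from 51.6 to 1461 CPM and from 3.50 to 46.05 CPM. Among the higher ones, NTN1 (netrin 1) ran from 16.4 to 49.1 CPM at 1 month and from 52.3 to 330 CPM later, and ALG9, a mannosyltransferase, from 13.15 to 16.97 CPM and from 27.0 to 119 CPM.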
